A study of Homo sapiens with 12 samples.

Results

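The comparison of WJ460 with its solvent rests on 6 libraries of PANC-1 cells, 3 given DMSO and 3 given 50 nM of the small molecule WJ460 in DMSO, out of 12 RNA-seq libraries in the series. The members were taken from the labels alone, as the DMSO and WJ460 groups, and all genes were included. PANC-1 is an established line of human pancreatic ductal adenocarcinoma, with the genotype labelled WT, and every library was labelled 48 h. The other 6 libraries received an siRNA, either siGL3 against firefly luciferase or siMYOF against MYOF, and entered the fit to estimate the spread and to compare effects. RNA was poly(A)-selected and sequenced as a stranded library. All 6 DMSO and WJ460 libraries carried the same, later batch label, shared with replicates 2 and 3 of each siRNA group, while both siRNA replicates 1 carried an earlier one. For PANC-1 the study's methods name biological replicates in the passage on the knockdown, and no source used here says so of the DMSO and WJ460 libraries, so p-values measure how these libraries differ from each other, and that may be technical variation.

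MYOF encodes myoferlin, a membrane protein of the ferlin family with several C2 domains that binds phospholipids in a calcium-dependent way and takes part in membrane repair, vesicle fusion and receptor recycling. WJ460 was used by the study as an inhibitor of the protein, while the siRNA lowers its message. The comparison asks which transcripts differ in these cells after exposure to the compound, and how that differs from loss of the MYOF message.

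The DMSO libraries held 12335147 to 13997453 reads and the WJ460 libraries 13809154 to 14771137. WJ460 replicate 1 stood apart from replicates 2 and 3. The chi-square statistic per degree of freedom of its counts against theirs was 12.0 and 11.5, against 3.58 between replicates 2 and 3 and 1.47 to 2.25 among the DMSO libraries. On the first principal component, which held 66.5% of the variance, the treatments separated, and on the second, with 11.4%, replicate 1 lay at -32.7 against 14.4 and 16.2 for the other WJ460 libraries. Counts that change without it are given both ways. Of 12 ductal markers 9 reached the tested range and 2 had no read in the 6 libraries. The summed level of all 12 was 37214 to 38519 with DMSO and 46319 to 56136 with WJ460. Of the 9 tested 5 rose and 2 fell, beside 27.3% and 25.6% of all genes. KRT19, a keratin of duct cells, was at 1594, 1650.3 and 1642 normalised counts with DMSO. Of the acinar markers none reached the tested range, and 7 of 12 had no read in the 6 libraries. Of 10 fibroblast markers 6 had no read, and the summed level of all 10 was 818 to 885 with DMSO and 432 to 598 with WJ460, most of it THY1 in each library. THY1 fell (-0.70) (a call lost without the batch term, as was the fall of KRT19), and the part of these markers in other results was not tested.

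MYOF (ENSG00000138119, chromosome 10, 93306429 to 93482334, GRCh38) had 21148, 20492 and 19950.2 normalised read counts with DMSO and 20151, 26083 and 22887 with WJ460. The groups overlapped, as WJ460 replicate 1 lay within the DMSO range, and the difference of 0.16 on the log2 scale (SE 0.23, limma adjusted p = 0.603) did not pass the threshold of 0.05. Across the transcriptome limma called 7784 of 14720 tested genes (52.9%), 4017 higher (27.3%) and 3767 lower (25.6%) with WJ460. At least 2-fold changes were found for 551 higher genes (3.74%) and 804 lower genes (5.46%). The median log2 fold change was 0.00 over all tested genes, and the median absolute value was 0.55 among the called ones. In 62.2% of the tested genes the 3 WJ460 libraries lay all above or all below the DMSO libraries. These values rest on median-of-ratios scaling. With scaling by total reads the median gene shifted by -0.15 (log2), 2639 genes were higher and 5195 lower, and 33.7% of the calls were upward in place of 51.6%. Unless total-read scaling is named, every change below is on the first scale, that is, relative to the median gene. List counts under scaling by total reads compare with 2639 higher and 5195 lower of 14720 genes, not with 27.3% and 25.6%. In bulk RNA a change in the share of cells that express a gene and a change in its RNA per cell cannot be told apart.

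The largest rises were ranked among protein-coding genes with a mean of at least 50 normalised counts and groups that do not overlap. They included secreted growth factors, a collagenase and transcription factors of the immediate-early type. HBEGF, a membrane-anchored ligand of the EGF receptor (chromosome 5, 140332843 to 140346603), was at 83.7, 101 and 79.7 normalised counts with DMSO against 869, 789.8 and 814 with WJ460. All WJ460 libraries lay far above the DMSO range, and the mean rose 9.34-fold from 88.3 ± 11.6 to 824 ± 40.7 (SD, n = 3; log2 fold change 3.22, SE 0.15, limma adjusted p = 1.43e-10). MMP1, the interstitial collagenase, rose from 27.6, 25.4 and 37.4 to 251, 309 and 319.9 (log2 fold change 3.25, SE 0.53, limma adjusted p = 9.98e-04). FGF1, a fibroblast growth factor released without a signal peptide, went from 15.8, 16.5 and 9.83 to 93.2, 101 and 115 normalised counts (2.82, limma adjusted p = 1.76e-08). IL11, a cytokine of the interleukin 6 family that signals through gp130, had 88.6, 87.1 and 95.4 counts with DMSO and 673, 536 and 605 with WJ460 (chromosome 19, 55364382 to 55370463; 2.72, SE 0.15, limma adjusted p = 1.77e-10). TMEM158, a membrane protein first described as induced by oncogenic Ras, rose from 60.1 ± 4.41 to 432 ± 9.36 (SD, n = 3), and AMH, the anti-Müllerian hormone of the TGF-beta superfamily, from 17.8 ± 3.1 to 97 ± 13.3 (SD, n = 3). CCDC150, of which little is known, rose 6.12-fold.

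**Figure D1:**
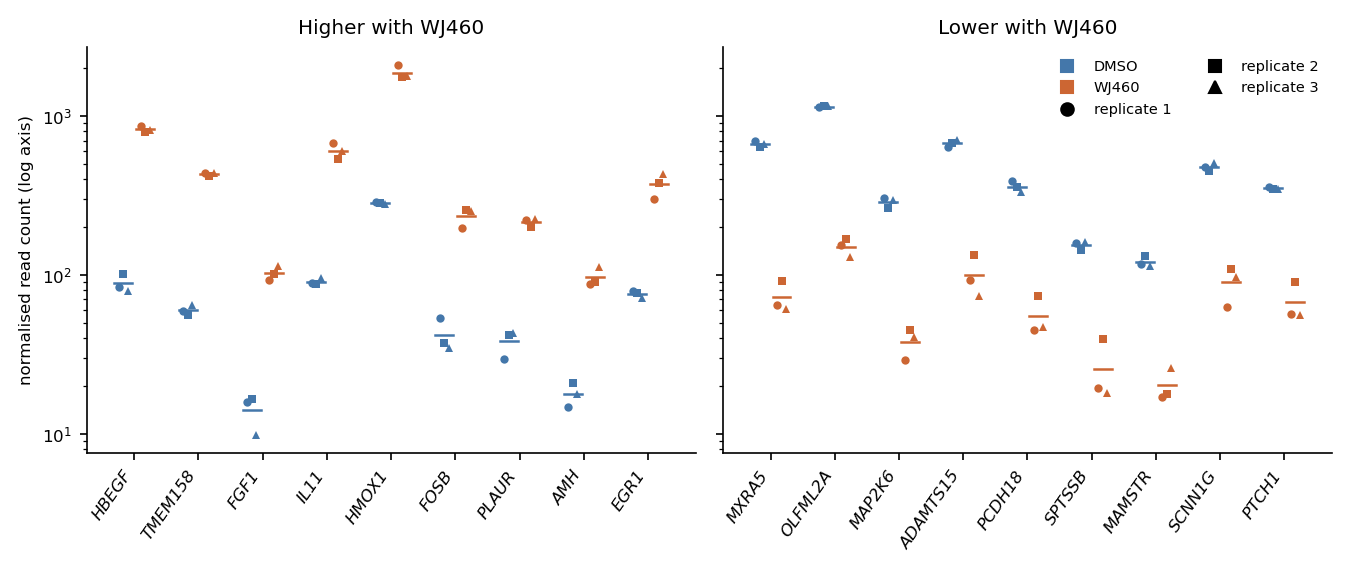
Normalised read counts (log axis) of 9 genes among the largest rises and 9 among the largest falls, with DMSO in blue and WJ460 in orange, 1 symbol per replicate and a bar at each group mean. The rule for the largest changes admitted only genes whose groups do not overlap, so the separation seen in these 18 genes was set by selection. In the falls SCNN1G and MAP2K6 were lowest in WJ460 replicate 1.

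HBEGF was the only tested EGF ligand that passed. Of 10 EGF ligands, ERBB receptors and shedding proteases tested, 3 rose and 2 fell (median 0.16), beside 27.3% and 25.6% of all genes. Under scaling by total reads 3 rose and 4 fell, with a median of 0.00. ERRFI1, a feedback inhibitor of EGFR, rose 1.86-fold from 8970.1 ± 279 to 16709.8 ± 467 (SD, n = 3). EGFR itself rose from 5150.3, 4974 and 4831 to 6123, 6649 and 5923, and ERBB3, the receptor partner that lacks an active kinase, fell 2.31-fold. EREG, another ligand at a few counts per library, had a log2 fold change of 0.93 that did not pass (limma adjusted p = 0.0611), and NRG1 and NRG2 were at -0.12 and 0.19, also without a call. The EGFR call was lost in the fit without the batch term.

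Plasminogen activation, in which urokinase bound to its receptor cuts plasminogen at the cell surface, was higher in the transcripts of receptor and protease. Of 7 members tested 6 rose and 1 fell, with a median log2 fold change of 1.60. PLAUR, the urokinase receptor, went from 29.5, 41.9 and 43.3 to 222, 201 and 223 normalised counts (chromosome 19, 43646095 to 43670547; 2.48, SE 0.17, limma adjusted p = 1.26e-09). PLAU, urokinase itself, was at 2248, 2183 and 2269.9 with DMSO against 10439.7, 6934 and 7635 with WJ460, with replicate 1 the highest. SERPINE2, a serine protease inhibitor, was the member that fell (-1.13).

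AP-1 is a dimer of FOS and JUN proteins, which cells induce within minutes of growth factor or stress signals. Of 9 family members tested 6 rose and 2 fell (median 0.38), beside 27.3% and 25.6% of all genes. FOSB rose most, from 53.2, 37.5 and 34.4 to 198, 258 and 253 normalised counts (2.49, SE 0.18, limma adjusted p = 2.73e-09). JUN, far more abundant, rose from 1116 ± 37.6 to 2136 ± 128 (SD, n = 3), and FOSL1, the most abundant FOS member, only 1.30-fold. JUND (-0.70) and BATF3 (-1.10) fell. The call of JUND was lost without WJ460 replicate 3, and that of FOSL1 without the batch term. In the wider list of immediate-early genes and ERK feedback inhibitors 13 of 31 rose and 5 fell, with a median of 0.25. Under scaling by total reads 9 of these rose and 7 fell, with a median of 0.09. EGR1, a zinc finger factor of this class, rose from 78.8, 77.2 and 71.8 to 299, 379 and 434 (2.26, limma adjusted p = 2.58e-10), MAFF, a small MAF protein, 4.17-fold, and DUSP5, a nuclear phosphatase of ERK, 3.91-fold. The feedback genes SPRY1 (-1.0) and DUSP6 (-0.64), which ERK signalling usually induces, fell in the same libraries.

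The AP-1 site, written TGANTCA and read on both strands, was looked for in RefSeq promoters (GRCh38.p14) from 250 bases before to 50 after each start. It was present in 5.09% of 15640 promoters of tested genes. Among promoters of genes at least 2-fold higher the share was 10.9% (52 of 478), and among those of genes at least 2-fold lower 3.81% (31 of 813). At a fold of 1.5 the shares were 7.37% and 4.04%. A match describes the sequence and is not a site shown to be bound, and promoters of 1 gene or of gene copies are not independent. Of the 6 other motifs searched on both strands, the cyclic AMP response element TGACGTCA was in 3.56% of the promoters of genes at least 2-fold higher against 2.86% of all, the short antioxidant response element TGACNNNGC in 16.1% against 14.6%, and the TEAD site GGAATG in 11.7% against 11.3%. The CArG box was in 1.88% (9 promoters) against 1.08%, the E2F site TTTCCCGC in 1.26% (6 promoters) against 2.35%, and the GLI site GACCACCCA in 0.209% (1 promoter) against 0.237%. Windows of 30 bases are shown for 4 of the genes described here, read on the strand of the gene with the motif in capitals, to place the motif in its sequence:
FGF1: ctaagatattcTGAGTCAgagaaaacaaaa
IL11: ggcagggagggTGAGTCAggatgtgtcagg
PLAUR: tcacaactccaTGAGTCAgggccgagccag
CXCL8: aggaagtgtgaTGACTCAggtttgccctga
The IL11 window (chr19:55370541-55370570, minus strand) has its motif 96 bases before the start of transcription, the PLAUR window (chr19:43670337-43670366, minus strand) 186 and the CXCL8 window (chr4:73740421-73740450, plus strand) 137 bases before. For FGF1 only 1 of 4 annotated promoters holds the motif (chr5:142644262-142644291, minus strand, 41 bases before its start). These distances count from the start in the RefSeq table, which for PLAUR lies inside the gene span of the annotation given above, so that its window falls within that span. The promoters of HBEGF, FOSB and EGR1 in the table hold none within this window.

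More cytokine and NF-kB genes rose than fell. NF-kB factors of the RELA and RELB branches are released or processed after receptor signals and induce their own inhibitors. Of 23 members tested 16 rose and 2 fell, with a median of 0.57. IL18, an interleukin of epithelial cells that is activated by caspase cleavage, rose from 249, 224 and 219 to 1144, 981 and 1043 (2.19, SE 0.08, limma adjusted p = 3.93e-12). RELB and NFKB2, the partners of the non-canonical branch, rose 3.02-fold and 1.90-fold, and the inhibitor genes NFKBIA (0.55) and TNFAIP3 (0.87) rose as well. The chemokine genes CXCL8 and CCL2 stayed at few reads, CXCL8 at 0.985, 2.21 and 0.983 normalised counts with DMSO and 21.4, 8.35 and 18.0 with WJ460, and CCL2 at 4.92, 8.83 and 6.88 and 38.6, 37.6 and 41.5. CSF1, the macrophage growth factor, went the other way, from 1221, 1313 and 1312 to 406, 328 and 287 (-1.92, limma adjusted p = 1.13e-10). Leukocyte markers summed to 7.72 to 15.7 normalised counts with DMSO and 15.6 to 29.2 with WJ460, and neither CD68 nor CD14, the members tested, passed.

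Of 27 genes of the BCL2 family, death receptors, caspases and their inhibitors 12 rose and 7 fell (median 0.09), beside 27.3% and 25.6% of all genes, and under scaling by total reads 9 rose and 8 fell. BIRC2 and its neighbour BIRC3 on chromosome 11, which encode the ubiquitin ligases cIAP1 and cIAP2, rose 3.09-fold and 2.98-fold. BIRC2 was at 2017, 1988 and 2089 with DMSO against 7002, 5849.9 and 5953 with WJ460. The anti-apoptotic BCL2A1 rose from 225 ± 2.80 to 989 ± 17.2 (SD, n = 3). Of the pro-apoptotic members that bind BCL2 proteins through a BH3 domain, BCL2L11 fell from 214, 207 and 232 to 108, 97 and 83.1, and BMF (-1.73, at under 10 counts in each WJ460 library) and BBC3 (-1.11) fell too. Without WJ460 replicate 3 the log2 fold change of BMF was -1.06. The decoy receptor gene TNFRSF10D rose by 1.27 on the log2 scale, and MCL1 (0.04) did not pass.

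HMOX1, which encodes the inducible heme oxygenase that frees iron from heme, was at 288, 284 and 280.3 normalised counts with DMSO against 2079, 1752 and 1795 with WJ460 (chromosome 22, 35380361 to 35394214; 6.6-fold, limma adjusted p = 5.92e-08). It is a target of NRF2, the factor that answers oxidants and electrophiles. Of 27 NRF2 and glutathione genes 14 rose and 3 fell, with a median of 0.22. Under scaling by total reads 9 rose and 5 fell, and without WJ460 replicate 1 13 rose and 6 fell. TXN, thioredoxin, rose 1.73-fold and PRDX1, a peroxiredoxin, 1.40-fold, whereas NQO1 (0.14, limma adjusted p = 0.318), a classical NRF2 target, did not pass.

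Of 38 autophagy and lysosome genes 22 rose and 5 fell (median 0.44). ULK1, the kinase that starts autophagosome formation, was at 274, 307 and 333 with DMSO against 1113, 1181 and 1208 with WJ460 (1.94, SE 0.12, limma adjusted p = 1.41e-09). CTSL, the lysosomal protease cathepsin L, rose 3.1-fold from 632 ± 6.77 to 1958 ± 69.8 (SD, n = 3), and ATG5, a protein of the LC3 conjugation system, 1.62-fold. TFEB, the factor that induces many lysosomal genes, fell (-0.92), as did GABARAP (-0.94), while its relative GABARAPL1 rose (0.82). The calls of both GABARAP genes were lost without the batch term.

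Transcripts of the alpha- and beta-tubulins, which pair into the dimer that builds microtubules, accounted for the largest losses in counts. Cells hold tubulin mRNAs in check by autoregulation, in which TTC5 recognises newly made tubulin chains and starts the decay of their mRNAs when free dimers are abundant. Free dimers and microtubules were not measured here. The summed count of the 17 listed genes was 114918, 112651 and 111809 with DMSO and 51346, 45297 and 45275 with WJ460. The mean fell 2.39-fold, from 113126 ± 1608 to 47306 ± 3499 (SD, n = 3; two-sided exact permutation test p = 0.1, the smallest that 3 against 3 libraries allow). TUBB alone went from 45474, 44375 and 44125 to 13506, 12454 and 11849 (chromosome 6, 30717435 to 30725538; -1.83, SE 0.08, limma adjusted p = 3.75e-11), the largest loss of any gene in counts. TUBA1B went from 39895 ± 1106 to 17556 ± 688 (SD, n = 3) and TUBA1C from 14261 ± 248 to 6316 ± 889.7 (SD, n = 3), each with a log2 fold change of -1.18.

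**Figure D2:**
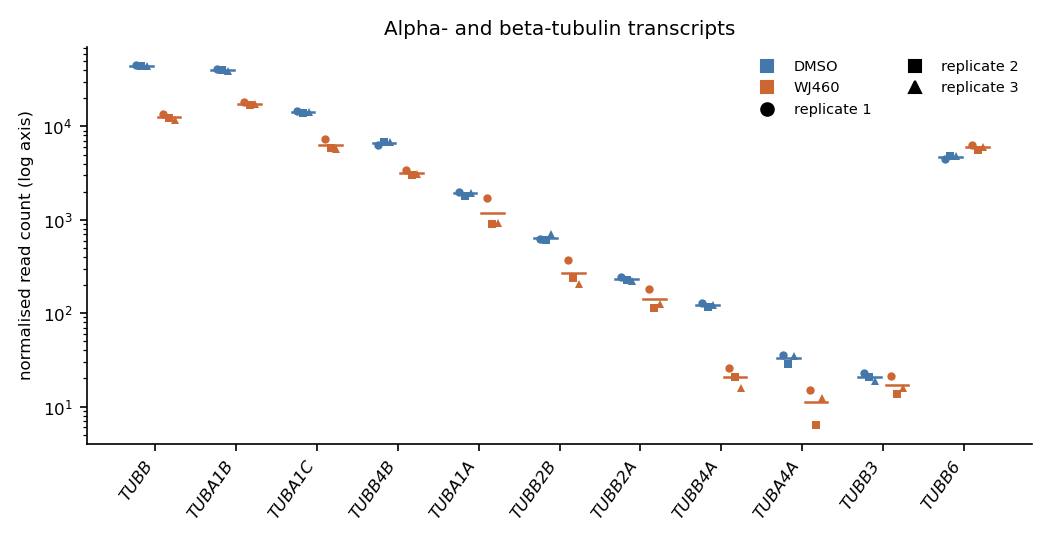
Normalised read counts (log axis) of the 11 tested alpha- and beta-tubulin genes per library, with DMSO in blue, WJ460 in orange, 1 symbol per replicate and a bar at each mean. In 9 genes the WJ460 libraries lie below every DMSO library, TUBB6 lies above, and the TUBB3 ranges overlap. Of all tested genes 62.2% have groups that do not overlap.

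Of the 11 tubulins tested 9 fell, and the neuronal isotype TUBB4A fell most, from 128, 116 and 121 to 25.7, 20.9 and 15.7 (-2.52). TUBB2B (-1.28), TUBB2A (-0.74), TUBA4A (-1.54) and TUBB4B (-1.07) fell as well. TUBA1A was at 1732, 894 and 922 in the WJ460 libraries, with replicate 1 close to the DMSO range of 1815 to 2002. Its call was lost without WJ460 replicate 3 and in the 6 libraries alone. TUBB6 was the exception, since it rose from 4468, 4798 and 4784 to 6383, 5618 and 6044 (0.36, limma adjusted p = 6.79e-04), and TUBB3 did not pass (-0.30, limma adjusted p = 0.343). These genes share long stretches of sequence, so reads could have been split between them. TUBE1, the epsilon-tubulin of centrioles, rose (0.94), and TUBG1, the gamma-tubulin that nucleates microtubules, fell (-0.50). The summed level was also low in both early siRNA libraries, at 40311 in siGL3 replicate 1 and 53264 in siMYOF replicate 1, against 115088 to 125195 in the late ones. Without the batch term, which takes up that gap, the call of TUBA1B was lost.

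The proteins that fold tubulin went the other way. Of 21 genes of prefoldin, the CCT chaperonin and the tubulin cofactors 16 rose and 3 fell, with a median of 0.41. TBCA, the cofactor that holds beta-tubulin, rose from 1851 ± 41.5 to 3353 ± 244 (SD, n = 3), CCT8, a chaperonin subunit, 1.76-fold, and PFDN2, of prefoldin, 1.89-fold. TTC5 was among the falls, at 326, 264 and 327 with DMSO and 162, 200.3 and 182 with WJ460 (-0.75, limma adjusted p = 1.69e-05). Kinesins rose in 11 and fell in 11 of 36 cases, beside 27.3% and 25.6% of all genes. Under scaling by total reads 10 rose and 15 fell. Of 23 dynein and dynactin genes 12 rose and 3 fell, or 9 and 8 under scaling by total reads.

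Genes of DNA replication fell, while genes of mitosis split into rises and falls. Of 40 S phase and replication genes 28 fell and 3 rose, with a median of -0.54. MCM6, a subunit of the replicative helicase, was at 2109, 1958 and 1996 with DMSO against 762, 738 and 650.0 with WJ460 (-1.5, SE 0.08, limma adjusted p = 1.37e-10). MCM5 fell 2.23-fold, PCNA, the sliding clamp, 2.03-fold, and GINS1, of the same helicase complex, 2.19-fold. ORC6 (0.67), TK1 (0.31) and POLE (0.21) were the members that rose, and none of these calls held throughout. Those of POLE and TK1 were lost under scaling by total reads, those of TK1 and ORC6 without the batch term, and that of TK1 also without DMSO replicate 1 or WJ460 replicate 3.

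Of 39 G2/M and mitosis genes 20 rose and 11 fell (median 0.35). CCNB1, the mitotic cyclin, rose from 6557, 6136 and 6377 to 13368, 15015 and 15005 (1.18, limma adjusted p = 1.5e-10), and its kinase CDK1 fell from 2998, 2801 and 2800.0 to 1295, 1118 and 1107 (-1.29, limma adjusted p = 4.04e-10). The mitotic kinase AURKA rose 1.95-fold, and AURKB, its relative at the centromere, fell 1.92-fold. PTTG1, or securin, rose 2.17-fold and the ubiquitin-conjugating enzyme UBE2C, which works with the anaphase-promoting complex, fell 2.16-fold. CENPE, a kinesin of the kinetochore, rose 2.16-fold, and TOP2A, the topoisomerase that untangles sister chromatids, fell from 7547 ± 289 to 2657 ± 267 (SD, n = 3; -1.51). The groups did not overlap for any of these 8 genes, nor for 62.2% of all tested genes. AURKB, CENPE, PTTG1 and UBE2C were named after their values were seen.

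**Figure D3:**
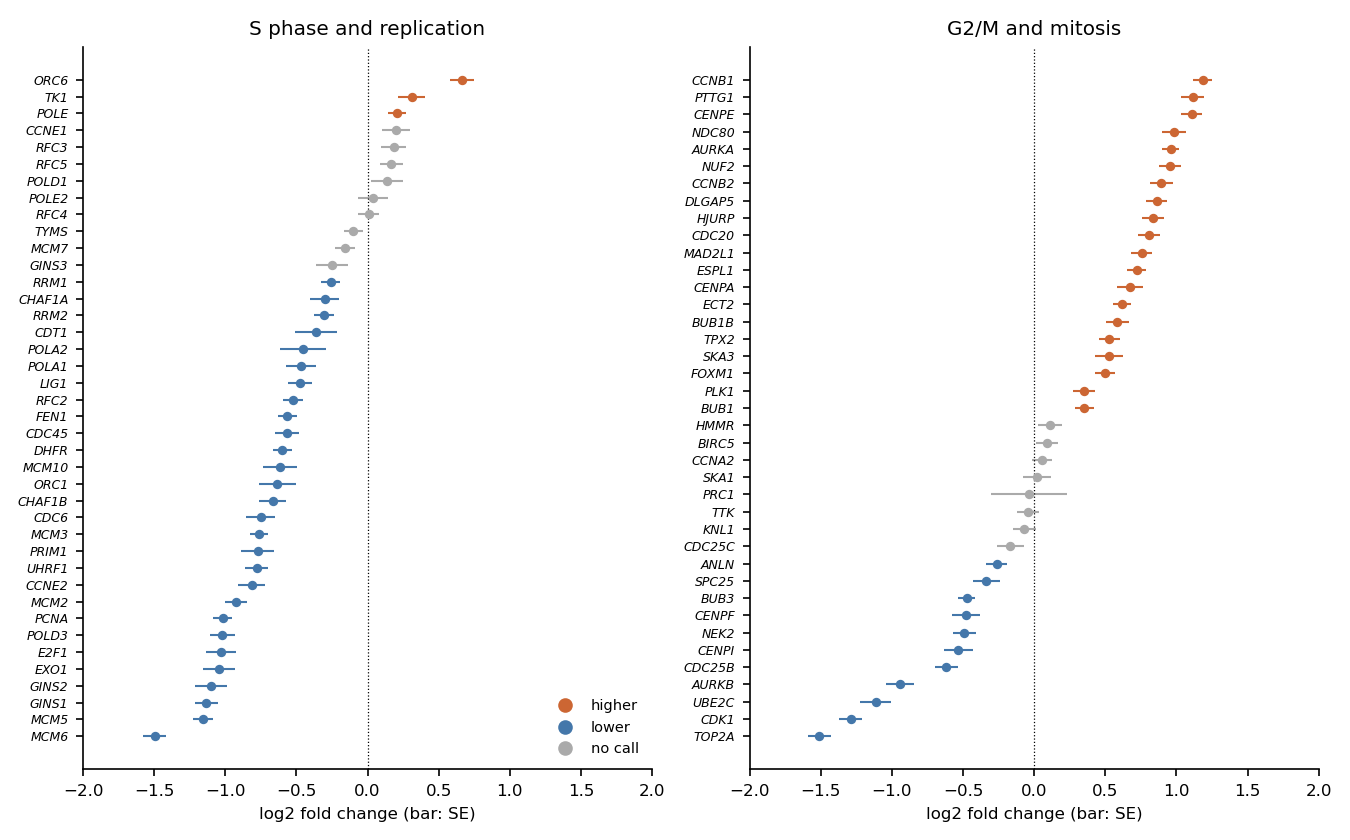
Log2 fold changes of the tested members of the S phase list and of the G2/M list, sorted, with standard errors as bars and the limma call as colour (orange higher, blue lower, grey no call). The S phase panel holds 28 falls and 3 rises, and in the G2/M panel CCNB1, PTTG1 and CENPE lie at the top and TOP2A, CDK1 and UBE2C at the bottom.

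Of 14 G1 cyclins, kinases and inhibitors 3 rose and 6 fell, beside 27.3% and 25.6% of all genes. CDKN1A, the CDK inhibitor p21, was at 144, 142 and 170.1 with DMSO against 692, 351 and 405 with WJ460 (1.60, limma adjusted p = 1.66e-05). The highest value was that of replicate 1, and without it the log2 fold change was 1.31. CDK6, a kinase of the G1 phase, fell 2.66-fold, from 3574 ± 112 to 1343 ± 93.7 (SD, n = 3), and RBL1, the RB relative p107, fell 2.28-fold. GADD45A, a growth arrest gene, rose from 76.8, 104 and 79.7 to 418, 371 and 356. CDKN1A and GADD45A are known as p53 targets, while PANC-1 carries mutant p53. Of the 23 listed targets 8 rose and 5 fell, beside 27.3% and 25.6% of all genes. Under scaling by total reads 7 rose and 8 fell. MDM2 (-0.54) and ZMAT3 (-0.53) were among the falls.

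Among the largest falls, MXRA5, a matrix-associated protein (chromosome X, 3308565 to 3346652), went from 700.0, 642 and 669 to 64.3, 91.8 and 60.6 normalised counts (-3.22, SE 0.28, limma adjusted p = 4.05e-06). OLFML2A, a secreted olfactomedin-domain protein, fell 7.62-fold from 1146 ± 9.91 to 150.5 ± 19.7 (SD, n = 3). MAP2K6, the kinase that activates p38, was at 305, 264 and 294 with DMSO against 28.9, 44.9 and 40.4 with WJ460 (-2.91, limma adjusted p = 1.99e-09). ADAMTS15, a secreted metalloprotease, fell 6.73-fold, SPTSSB, a small subunit of serine palmitoyltransferase, 6.02-fold, and ATP9A, a lipid flippase, 5.01-fold. HOXC12, a homeobox gene, was the most abundant of these and fell from 3001 ± 48.4 to 637 ± 138 (SD, n = 3). SCNN1G, a subunit of the epithelial sodium channel, fell from 479, 449 and 509 to 63.2, 109.5 and 96.5. The subunit genes SCNN1B and SCNN1A, named after their values were seen, also fell. SCNN1B fell 3.02-fold, and SCNN1A from 13.8, 13.2 and 16.7 to 4.29, 3.13 and 2.25, at few reads. SGK1, the kinase that keeps the channel at the surface, rose (1.67). Without WJ460 replicate 1 the log2 fold change of SCNN1B was -1.22 in place of -1.74.

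Hedgehog signalling runs from a ligand through PTCH1 and SMO to the GLI factors, which induce PTCH1 and GLI1. Of 15 pathway genes 9 fell and 2 rose, with a median of -0.46. The receptor gene PTCH1 fell from 357, 349 and 345 to 56.8, 89.7 and 56.1 (-2.39, SE 0.17, limma adjusted p = 3.98e-09). GLI1 (-0.68), GLI2 (-0.74), SMO (-0.46) and the co-receptors BOC (-1.82) and CDON (-0.65) fell too. The ligand gene SHH rose from 28.6, 28.7 and 31.5 to 64.3, 55.3 and 61.7, at few reads, and KIF7 rose (0.42), a call lost in 15 of the 24 other fits. DHH (-0.75), EVC (-0.14) and HHAT (-0.05) did not pass, although DHH passed in 6 of the other fits.

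In the TGF-beta list 14 of 26 members fell and 7 rose (median -0.31). SMAD3, the signal-transducing SMAD, fell 1.70-fold from 7836 ± 106 to 4601 ± 208 (SD, n = 3). The inhibitory SMADs fell more, SMAD6 from 187, 189.7 and 207 to 64.3, 65.7 and 71.8 and SMAD7 3.2-fold. COL1A1, the collagen I chain, was at 239, 263 and 267 with DMSO against 91.1, 50.1 and 50.5 with WJ460 (-2.04, limma adjusted p = 9.50e-08). Wnt genes fell in 13 and rose in 5 of 29 cases (median -0.15), among them the receptors FZD4 (-1.91), FZD7 (-1.25) and LRP5 (-0.90), while the ligand WNT5B rose (0.91). In the Notch list 7 of 22 fell and 3 rose (median 0.03), beside 25.6% and 27.3% of all genes. NOTCH3 (-1.82), LFNG (-1.29) and MAML2 (-1.27) were lower, and the highest member was at 1.29.

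Of 9 protocadherins and atypical cadherins 7 fell and 0 rose by limma, with a median of -0.62. At an unadjusted p under 0.05 1 rose, PCDH1 (0.91), and by edgeR and DESeq2 0 did. PCDH18 was at 389, 356 and 334 with DMSO against 45.0, 74.1 and 47.1 with WJ460. Of 19 epithelial junction genes 1 rose and 6 fell (median -0.08), against 27.3% and 25.6% of all genes. JUP, which encodes plakoglobin, and PPL, periplakin, fell 2.64-fold and 4.07-fold, and TJP1 fell (-0.54), whereas the claudin gene CLDN4 rose (1.42). CDH1, E-cadherin, was at 9.85, 12.1 and 16.7 with DMSO against 1.07, 2.09 and 3.37 with WJ460, so this fall rests on few reads. Of 19 interferon-stimulated genes 8 fell and 1 rose (median -0.33).

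**Figure D4:**
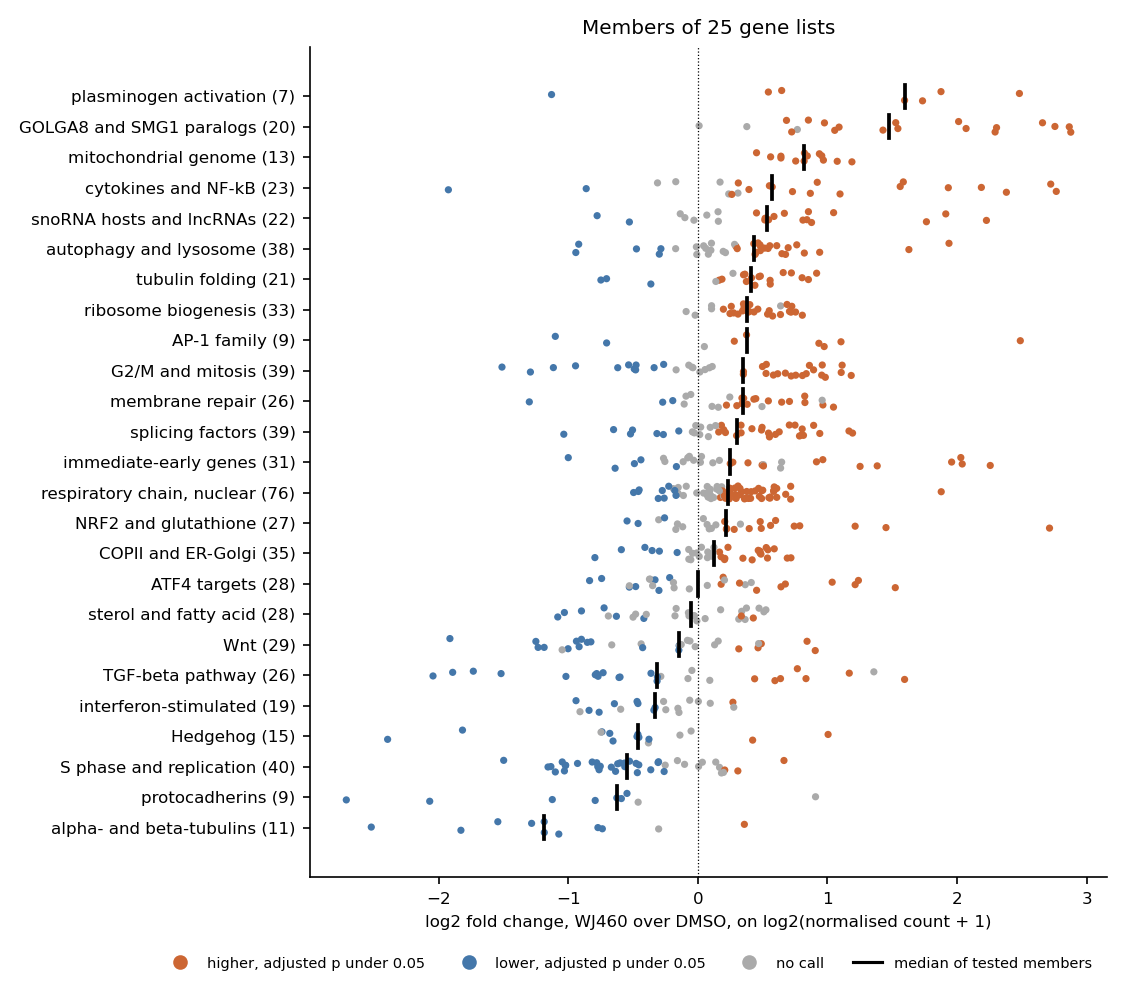
Log2 fold changes of all tested members of 25 gene lists (numbers in parentheses), with the limma call as colour and a black bar at the list median. The medians run from 1.60 for plasminogen activation to -1.18 for the tubulins, and the median of all 14720 tested genes was 0.00.

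Serum response factor with its MRTF partners induces many actin-binding proteins. Of 32 such genes 12 rose and 6 fell (median 0.09), beside 27.3% and 25.6% of all genes. Under scaling by total reads 10 rose and 11 fell, where 2639 of all 14720 tested genes were higher and 5195 lower. TAGLN, an actin-bundling protein of contractile cells, rose from 17.7, 11 and 9.83 to 84.7, 51.1 and 57.3 (2.25, SE 0.30, limma adjusted p = 5.44e-06). MYL9, a myosin light chain, rose 3.21-fold and ZYX, the focal adhesion protein zyxin, 2.35-fold, while MRTFB fell (-0.88). Of 23 YAP and TEAD genes 6 rose and 6 fell, or 3 and 5 without WJ460 replicate 1, with the target ANKRD1 (2.38) higher and TEAD2 (-1.16) lower.

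Of 27 genes of collagens and matrix proteins 8 rose and 8 fell, beside 27.3% and 25.6% of all genes. Without WJ460 replicate 1, as without DMSO replicate 1 and under scaling by total reads, 5 rose. LOX, which cross-links collagen, rose from 2.95, 2.21 and 2.95 to 20.4, 11.5 and 12.3 (2.05, limma adjusted p = 1.27e-04), at few reads. COL6A1 (-1.15), a collagen VI chain, and SPARC (-0.99), a matrix glycoprotein, fell. Of 20 integrins and laminins 8 rose and 2 fell, or 6 and 5 under scaling by total reads. ITGB4, the integrin of hemidesmosomes, fell (-0.84), a call lost without the batch term.

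Heat shock and chaperone genes rose in 13 and fell in 4 of 21 cases (median 0.35). AHSA1, the activator of the HSP90 ATPase, rose 1.76-fold, and HSPD1 (0.70) and HSPE1 (0.62), the mitochondrial chaperonin pair, rose. The inducible HSP70 genes HSPA1A, at 1106, 1201 and 1196 with DMSO and 488, 463 and 454 with WJ460, and HSPA1B (-0.99) fell, as did their co-chaperone DNAJB1 (-0.68). HSPA1A and HSPA1B are near-identical, so their separate values are uncertain. Histone genes of the replication-dependent class, most of whose messages end without poly(A), rose in 7 of 13 cases (median 0.49) and fell in 0 by limma, also at an unadjusted p under 0.05 and by edgeR and DESeq2. HIST2H2BE rose from 49.2, 35.3 and 28.5 to 97.5, 115 and 101.

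Nuclear and long noncoding RNAs were higher. Of 22 snoRNA host genes and long noncoding RNAs 14 rose and 2 fell (median 0.53). NEAT1, the scaffold of nuclear paraspeckles, went from 1219, 1462 and 1171 to 6213, 5849.9 and 5909 (2.23, SE 0.10, limma adjusted p = 1.65e-10). MALAT1, an RNA of nuclear speckles that lies next to it on chromosome 11, rose 3.77-fold from 493 ± 40.0 to 1860.4 ± 122 (SD, n = 3), and MEG3 rose 3.41-fold. Splicing factors and their kinases rose in 24 and fell in 7 of 39 cases, with SRSF7 (0.94), DDX5 (0.82) and PNISR (1.17) among the rises and HNRNPDL (-1.03) the largest fall. The GOLGA8, NPIP and SMG1-derived copies on chromosomes 15 and 16 rose in 17 of 20 cases with a median of 1.48, and 0 fell by limma, at an unadjusted p under 0.05, or by edgeR and DESeq2. GOLGA8B went from 189, 224 and 186 to 1306, 1531 and 1585 and GOLGA8A from 185, 219.5 and 161 to 1234, 1463 and 1428. These copies are near-identical and reads could have been split between them, so the single values are uncertain, and SMG1 itself, the kinase of nonsense-mediated decay, did not pass (0.01, limma adjusted p = 0.965). The number of rises was 12 without WJ460 replicate 2 and 12 under scaling by total reads.

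Transcripts of the mitochondrial genome, which encodes core subunits of the respiratory chain, rose in all 13 protein-coding cases (median 0.82), also under scaling by total reads. They made up 2.99, 3.1 and 2.95% of the reads with DMSO and 3.88, 5.05 and 5.06% with WJ460, a mean of 3.02 ± 0.0764% against 4.66 ± 0.682% (SD, n = 3; two-sided exact permutation test p = 0.1, the smallest possible here). Both early siRNA libraries, at 3.81% and 4.72%, were above the late ones, at 2.84 to 3.21%. MT-ND2, a subunit of complex I, rose 2.29-fold and MT-CO1, of complex IV, 1.5-fold. Of 76 nuclear genes for the same complexes 42 rose and 9 fell (median 0.23). Under scaling by total reads 22 rose and 14 fell, where 2639 of all 14720 tested genes were higher and 5195 lower. COX7A2 (0.68), NDUFA1 (0.72) and CYCS (0.59), which encodes cytochrome c, were among the rises, and of those at low counts NDUFV2 rose from 4.92, 7.72 and 3.93 to 18.2, 27.1 and 22.5. Of 33 ribosome biogenesis genes 28 rose (median 0.38) and 0 fell by limma, at an unadjusted p under 0.05, or by edgeR and DESeq2. GNL3 and NOP58, nucleolar proteins, rose 1.69-fold and 1.65-fold. Under scaling by total reads 22 rose and 1 fell.

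Other abundant transcripts changed by less in fold but much in counts. RPS16, a protein of the small ribosomal subunit, rose 1.49-fold from 103154 ± 2187 to 153325 ± 13701 (SD, n = 3), and SUPT5H, an elongation factor of RNA polymerase II, 1.91-fold from 25902 ± 476 to 49411 ± 5263 (SD, n = 3). MED29, a Mediator subunit, fell 1.85-fold from 17158 ± 251 to 9269 ± 516 (SD, n = 3). These 3 genes lie within one stretch of chromosome 19, with MED29 at 39391303 to 39400641, RPS16 at 39433137 to 39435949 and SUPT5H at 39436156 to 39476670 (GRCh38), so neighbours changed in opposite directions. ACTB, cytoplasmic actin, fell 1.39-fold, and the secreted serine protease PRSS23 1.84-fold.

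The counts for sterol synthesis genes and ATF4 targets changed most with WJ460 replicate 1. SREBP factors induce the enzymes of cholesterol synthesis when sterols are low, and ATF4 induces amino acid genes when translation is held back by stress. HMGCS1, an enzyme early in cholesterol synthesis, was at 954, 885 and 935 with DMSO against 2917, 866 and 836 with WJ460, and INSIG1, which retains SREBP in the endoplasmic reticulum, was at 1753, 1758 and 1737 and 2378, 887 and 936. SCD, the stearoyl-CoA desaturase, had 25369, 11771 and 10586 normalised counts with WJ460 against 26733 to 27855 with DMSO. In each of these, replicate 1 was the high one of the WJ460 libraries. Over all libraries 2 of 28 sterol and fatty acid genes rose and 6 fell (median -0.05), whereas without WJ460 replicate 1 the numbers were 3 and 15 (median -0.33). INSIG1 did not pass over all libraries (-0.48) and passed without replicate 1, at -0.94. SREBF1, the SREBP-1 gene, fell either way, from 1286, 1634 and 1527 to 596, 770.0 and 739. The fall of SCD (limma adjusted p = 0.0442) was lost in 16 of the 24 other fits, and without replicate 1 its log2 fold change was -1.29. Leaving out 1 DMSO replicate or WJ460 replicate 3 left 3 falls in the list.

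**Figure D5:**
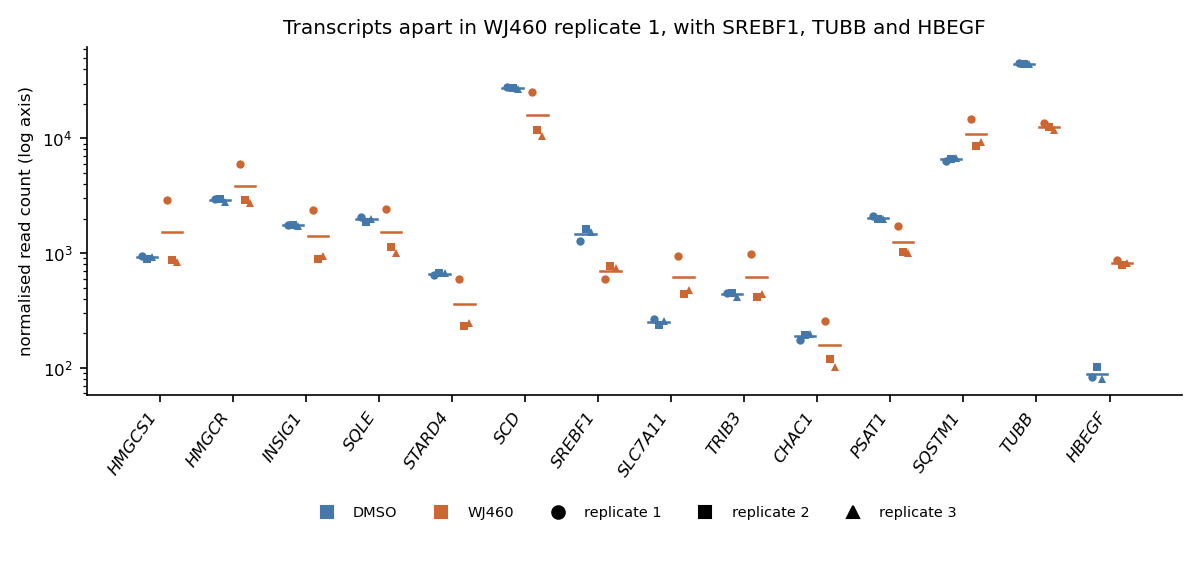
Normalised read counts (log axis) of sterol genes, ATF4 and NRF2 targets per library, with DMSO in blue, WJ460 in orange, 1 symbol per replicate and a bar at each mean. WJ460 replicate 1 (circle) lies above replicates 2 and 3 from HMGCS1 to SCD and from SLC7A11 to SQSTM1, in PSAT1 between them and the DMSO range, while in TUBB and HBEGF the 3 libraries lie together.

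Of 28 ATF4 targets 10 rose and 7 fell with a median of 0.00, beside 27.3% and 25.6% of all genes. Without WJ460 replicate 1 9 rose and 14 fell with a median of -0.31. Under scaling by total reads 7 rose and 8 fell. ATF4 itself rose 1.60-fold and PPP1R15A, which restarts translation by dephosphorylating eIF2, 2.90-fold, both with every WJ460 library above every DMSO library. The groups did not overlap in 62.2% of all tested genes. SLC7A11, the cystine transporter, was at 265, 236 and 255 with DMSO against 952, 444 and 474 with WJ460 (1.21, and 0.86 without replicate 1). The serine synthesis gene PSAT1 fell (-0.74), and its call was lost in the 6 libraries alone. SQSTM1, the autophagy receptor p62, was at 14699, 8533 and 9211 with WJ460 against 6406 to 6690 with DMSO, and its call was lost in 4 of the 24 other fits.

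Of the genes tied most directly to myoferlin, those of membrane repair and caveolae rose in 15 and fell in 3 of 26 cases (median 0.35), or 9 and 6 under scaling by total reads. EHD2, an ATPase at the neck of caveolae that binds ferlins, fell from 1284, 1373 and 1261 to 577, 535 and 482 (-1.30, limma adjusted p = 1.32e-09). The annexin genes ANXA5 and ANXA2, calcium-dependent membrane binders, rose 1.78-fold and 1.46-fold, and CHMP4B, the ESCRT-III subunit that seals membranes, 1.77-fold. DYSF, a close relative of MYOF, was at a few counts per library without a call (0.50, limma adjusted p = 0.504). Of 35 genes of COPII and COPI coats and ER-Golgi transport 17 rose and 6 fell (median 0.13), and under scaling by total reads 12 rose, 11 fell and the median was -0.03. The cargo receptors of the p24 family moved in opposite directions, TMED9 up by 1.65-fold and TMED10 down by 1.73-fold, and of the coat subunits SEC23B fell (-0.59) and SEC31A rose (0.48).

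The effect of WJ460 was set against that of the knockdown by the difference between both log2 fold changes, tested in the same fit. The contrasts share no control libraries. This difference passed for 7093 of 14720 genes (48.2%), and for MYOF itself it was 2.87 (SE 0.33, limma adjusted p = 1.83e-04), with a siMYOF minus siGL3 effect of -2.71 in a contrast that called 53.9% of the genes. TUBB differed by -1.83 (limma adjusted p = 2.74e-09), with a knockdown effect of 0.00, and TUBA1B by -1.23. The difference passed upward for IL11 (3.19), NEAT1 (2.94), HMOX1 (2.26), IL18 (1.92) and BIRC2 (1.27). It passed downward for CDK6 (-2.23), CDK1 (-1.95), TOP2A (-1.86), the gene of a ubiquitin ligase of Notch ligands, NEURL1B (-2.23), and PCDH18 (-2.11).

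HBEGF rose under either treatment, by 3.22 with WJ460 and 2.04 with siMYOF, and the difference of 1.17 passed as well. No difference passed for EGR1 (-0.05, SE 0.19, limma adjusted p = 0.837), DUSP5 (-0.02, SE 0.29, limma adjusted p = 0.959), BIRC3 (-0.03, SE 0.15, limma adjusted p = 0.902), COL1A1 (-0.03, SE 0.28, limma adjusted p = 0.931) or SMAD6 (-0.01, SE 0.19, limma adjusted p = 0.966). In each of these 5 the WJ460 and siMYOF effects had the same sign, and the standard errors set how large a difference could have gone unseen. For MMP1 the difference was 0.41 with an SE of 0.74 (limma adjusted p = 0.689), so which effect was larger could not be told at this spread. Some genes differed in the other direction, among them PPL, with a log2 fold change of -2.04 with WJ460 and -3.12 with siMYOF, and SLC7A11, whose rise was smaller with WJ460 (difference -1.64).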

How the data were processed

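RNA-seq was done on 12 PANC-1 libraries, from an Illumina stranded mRNA kit. The study's methods and the submitters' notes on processing name STAR and Salmon on GRCh38 with Ensembl 97. The deposited signal values are read counts that the authors divided by 1 median-of-ratios size factor per library, and division by the smallest step gave whole reads for 100% of them (tolerance 0.001). Of 60617 genes 60261 matched GENCODE 44, the source of coordinates.

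Groups came from the labels. All 12 libraries entered 1 limma (3.58.1, R 4.3.3) fit on log2(normalised count + 1), with trended and robust variances, and terms for group and batch, over 14720 genes with a mean of at least 5. The fold changes in the text are fitted where given as log2 fold change and are ratios of group means where given as "-fold". Values in parentheses beside a gene are fitted log2 fold changes of WJ460 over DMSO, and adjusted p-values are limma's with Benjamini-Hochberg adjustment over all tested genes. The log2(normalised count + 1) scale understates changes of genes with few reads. On simulated counts with 14720 genes, 99% of 100 genes changed by 1 on the log2 scale were recovered, likewise for a change of 2. Of the calls in that simulation 6.16% were false. The simulation changed 100 genes at each size, whereas limma called 7784 genes in the data, with a median absolute log2 fold change of 0.55. Recovery of changes under 1 and the share of false calls in the data were therefore not tested.

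Alternatives were the 6 libraries alone, no batch term, a replicate block, TMM or total-read scaling, pseudocounts of 0.5 and 5, other filters, edgeR 4.0.16 and DESeq2 1.42.0 on recovered reads, and leaving out each library in turn. The 12335147 to 14771137 reads per library in the 6 libraries set the precision, and standard errors also cover the spread between libraries.

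The members and the 62 gene lists, of which 38 are described, were chosen with earlier results of these data known. Named genes were MYOF, the 15 largest rises and falls of protein-coding genes with a mean of at least 50 and groups that do not overlap, the 10 largest gains and losses in counts, up to 4 members of each list by p, and all tubulin, EGF, Hedgehog and marker genes. Other genes were named after their values were seen: ANKRD1, AURKB, BBC3, BCL2L11, BMF, CCL2, CDH1, CDKN1A, CENPE, CXCL8, DUSP5, DUSP6, DYSF, GABARAP, GABARAPL1, HMGCS1, HSPA1B, HSPE1, INSIG1, ITGB4, JUND, LOX, MCL1, MRTFB, MYL9, NDUFV2, NFKB2, NFKBIA, NQO1, ORC6, PCDH1, PLAU, POLE, PSAT1, PTTG1, RELB, SCNN1A, SCNN1B, SEC31A, SERPINE2, SLC7A11, SMAD7, SMG1, SPARC, SQSTM1, TAGLN, TFEB, TK1, TNFAIP3, TTC5, UBE2C, ZMAT3 and ZYX. A few genes within this rule are left out of the text.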

Additional observations from a re-analysis of the deposited data

How the results depend on the processing

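Without the batch term 5140 genes passed in place of 7784, 2597 of them higher in place of 4017, and the difference from the siMYOF effect passed for 4309 in place of 7093. All 6 DMSO and WJ460 libraries carry 1 batch label, so dropping the term left the fitted log2 fold changes of WJ460 over DMSO unchanged. It changed only the estimate of the spread, which is taken over all 12 libraries. Without the term, the distance of both early siRNA libraries from the late ones enters that spread. These 2 libraries have the low tubulin and high mitochondrial levels given above. In the 6 libraries alone 8196 genes passed. Under scaling by total reads 2639 genes were higher and the summed tubulin count was 2.67-fold lower in place of 2.39-fold. The AP-1 share of promoters of higher genes was 7.37% at a fold of 1.5 in place of 10.9%. Leaving out each library in turn gave 6802 to 7999 calls, 3531 to 4136 higher and 3257 to 3863 lower, and 6482 to 7152 for the difference of effects. It gave 1.45 to 2.04 percentage points for the mitochondrial share and 2.34 to 2.50 for the tubulin fold. edgeR called 7820 genes and DESeq2 7295.

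Replicate numbers did not pair the libraries. The deviations of same-numbered DMSO and WJ460 libraries from their group means correlated at 0.026, -0.0020 and 0.0046, and not every library correlated best with its own number. With the replicate block 7970 genes passed, 7259 for the difference of effects, and 8227 with the block in the 6 libraries alone. The block in the fit of all libraries changed the call of 0 named genes.

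Of 197 named genes 17 lost their call under some alternative. Without the batch term 13 did, and under scaling by total reads 4 did. These sets overlap, as for TK1, and calls were also lost on leaving out single libraries, as for JUND. No named gene that passed reversed its direction. For the 38 lists, 1732 of 1824 counts of rises or falls stayed within 1.5 times the value given. Genes of a few counts per library, such as DYSF, CDH1 or CXCL8, could show only large changes at this depth.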
